A study of Homo sapiens with 2 samples.

Results

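The endothelin system was described in 2 human melanoma cell lines across its 6 core genes: the receptors EDNRB and EDNRA, the ligands EDN1, EDN2 and EDN3, and the activating protease ECE1. The members were all probe sets whose platform annotation carried 1 of these symbols. There were 11 such probe sets, for 5 of the 6 genes, out of 19775 genes named on the array. No probe set carried EDNRA as its only symbol in the annotation used, and those with several symbols were set aside. This receptor was therefore not analysed here. Of the 5 genes, 3 reached log2 6 in at least 1 line (EDNRB, EDN1 and ECE1), and 2 (EDN2 and EDN3) lay below it in both.

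IGR39 was derived from a primary melanoma of the skin, labelled achromic. IGR37 came from a melanoma metastasis to a lymph node. The design text of the series speaks of related primary and metastatic lines. Both were untreated cultures in DMEM with serum, and each is a single established line, so neither stands for primary or metastatic tumours in general. Total RNA of each line was hybridised to 1 Affymetrix Human Genome U133 Plus 2.0 array. A single array per line leaves no replicate and allows no test, and each difference describes these arrays only.

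Endothelins are small secreted peptides. Furin-type convertases cut their precursors to inactive big endothelins, and ECE1, a membrane metalloprotease, completes the activation. EDNRA responds mainly to EDN1 and EDN2, whereas EDNRB binds all of the ligands alike. Both receptors couple to Gq and other G proteins, which raise calcium and activate protein kinase C. In the neural crest, EDN3 acting on EDNRB is needed for melanoblasts and enteric neurons, and loss of either gene causes pigment loss with missing gut innervation. In adult skin, EDN1 from keratinocytes stimulates melanocytes through EDNRB.

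EDNRB, the only receptor with a value here, was higher in IGR37. EDN1 was the only ligand to pass a 2-fold difference, lower in IGR37 and on its brightest probe set only. The 250 bases before a RefSeq transcript start of each are shown for that reason. The EDNRB window lies at chr13:77919683-77919932 on the minus strand, before the more upstream of the 2 starts listed. The EDN1 window lies at chr6:12290111-12290360 on the plus strand, before the most downstream of the 3 starts listed. Both were taken from the RefSeq table of GRCh38.p14 and are printed 5′ to 3′. Capitals mark matches, on either strand, to CANNTG (E-box, bound by MITF and other helix-loop-helix factors), ACAAAG and ACAAT (SOX), TGANTCA (AP-1) and GATAA (GATA).
EDNRB: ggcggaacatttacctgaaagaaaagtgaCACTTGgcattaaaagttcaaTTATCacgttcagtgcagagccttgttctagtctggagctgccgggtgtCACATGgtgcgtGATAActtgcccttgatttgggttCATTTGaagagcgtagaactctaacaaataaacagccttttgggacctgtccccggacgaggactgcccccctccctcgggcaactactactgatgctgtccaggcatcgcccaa
EDN1: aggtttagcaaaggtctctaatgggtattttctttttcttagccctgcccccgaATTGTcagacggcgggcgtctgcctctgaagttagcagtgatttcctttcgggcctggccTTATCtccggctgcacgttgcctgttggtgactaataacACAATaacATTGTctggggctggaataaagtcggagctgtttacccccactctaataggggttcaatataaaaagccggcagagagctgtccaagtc

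The EDNRB window held 3 E-box matches, beginning 221, 151 and 115 bases before the start, and 2 GATA matches. The E-box at 151 bases also matched CATGTG, the core of the M-box that MITF prefers, read on the opposite strand. Among 35116 promoter windows of this length, 61.8% held an E-box match, 9.42% the M-box core and 20.4% a GATA match. The EDN1 window held 3 matches to ACAAT, present in 24.6% of windows, and 1 to GATAA, beginning 136 bases before the start. The other EDNRB start listed held no match to any of these motifs. Of the other EDN1 windows, 1 held an E-box match and 1 held 3 matches to ACAAT. Matches to ACAAAG (13.7% of windows) and to TGANTCA (6.57%) were found in neither printed window. The patterns are strict: tgactaa in the EDN1 window differs from TGANTCA in 1 letter and was not counted. The absence of a match therefore does not show the absence of a site. A match describes the letters only, since binding was not measured here.

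The receptor EDNRB was high in IGR37 and at a low level in IGR39 on each of its 3 probe sets. Probe set 204271_s_at stood at 3.77 in IGR39 and 10.70 in IGR37, in log2 units of the deposited RMA level. Probe set 206701_x_at stood at 3.06 and 10.43. The dimmest, 204273_at, stood at 2.58 and 7.70. All IGR37 values thus lay above log2 6 and all IGR39 values below it.

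The difference, IGR37 minus IGR39, was 6.93, 7.37 and 5.12 on these probe sets, with a mean of 6.47 ± 1.19 (SD over 3 probe sets of the same 2 arrays). On the linear scale these are ratios of 122, 166 and 34.8. The ratios rest on low IGR39 values, a range in which RMA compresses differences, so their size is less certain than their direction. By its brightest probe set, EDNRB ranked 9 from the top among the 8501 genes that reached log2 6 in at least 1 line. Of those genes, 11.4% were higher in IGR37 by 2-fold or more, and 9.5% were lower by as much. Among the 3 endothelin genes at this level, 1 was higher and 2 were lower.

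**Figure D1:**
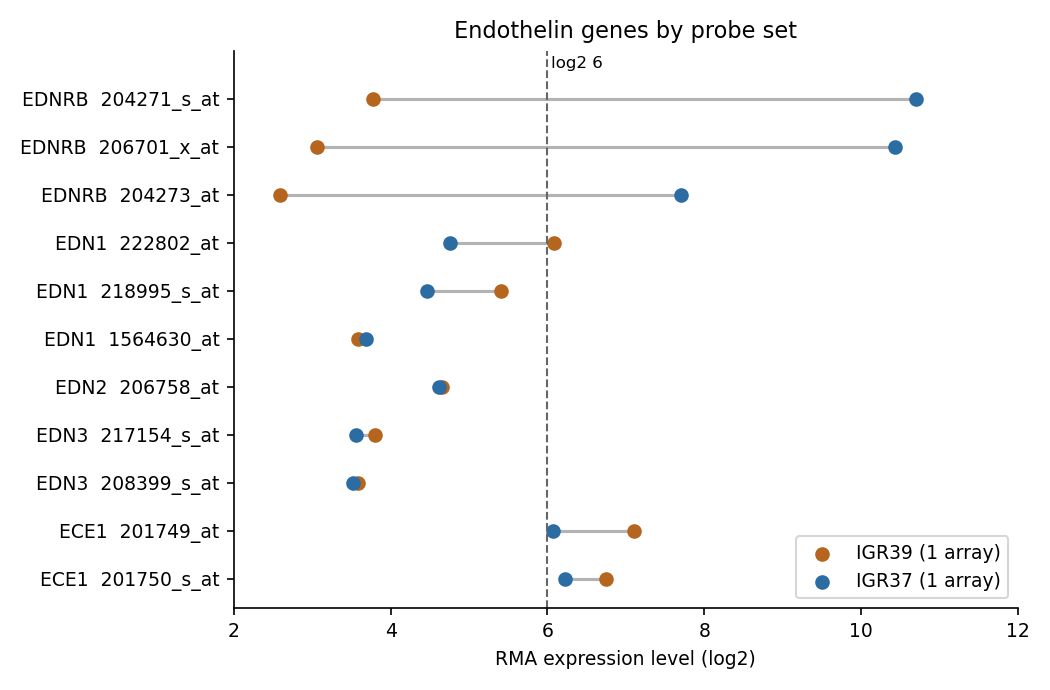
Deposited RMA levels (log2) of the 11 probe sets of EDNRB, EDN1, EDN2, EDN3 and ECE1, with 1 point for the single array of each line and a dashed line at log2 6. The 3 EDNRB probe sets join low IGR39 values (2.58 to 3.77) to high IGR37 values (7.70 to 10.70), while the 2 points of every other probe set lie within 1.33 of each other.

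Among the ligands, EDN1 was the only one to reach log2 6, and it did so in IGR39. EDN1 encodes the ligand best known from blood vessels. Its brightest probe set, 222802_at, stood at 6.08 in IGR39 and 4.75 in IGR37, which is -1.33 or a 2.51-fold lower level. Its probe set 218995_s_at stood at 5.41 and 4.47, a difference of -0.94. The remaining probe set, 1564630_at, was at 3.59 and 3.68, low in both lines. Over all of them the mean difference was -0.72, inside the 2-fold limit. The EDN1 level in IGR39 was thus just above the minimum on 1 probe set and below it on the others.

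EDN2, whose peptide acts through both receptors, stood at 4.66 in IGR39 and 4.62 in IGR37 on its only probe set. EDN3, the developmental partner of EDNRB, stood at 3.80 and 3.55 on 217154_s_at and at 3.59 and 3.52 on 208399_s_at. These values lay below log2 6 in both lines, with differences from -0.24 to -0.04. Centring each array on its median housekeeping level turned the sign of EDN2 (0.23) and of EDN3 (0.02); centring on the median housekeeping difference turned that of EDN2 (0.0094) and left EDN3 at -0.20. EDN3 thus lay below the minimum in the line with high EDNRB.

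ECE1 was above the minimum in both lines. Probe set 201749_at stood at 7.11 in IGR39 and 6.06 in IGR37, and 201750_s_at at 6.75 and 6.22. The differences were -1.04 and -0.53, so only the first passed the 2-fold limit, and the mean of -0.78 did not. The first value was -0.997, inside the limit, after centring on the median housekeeping difference. How far probe sets of 1 gene differ from each other offers a yardstick: over 3178 genes with at least 2 probe sets at log2 6, the pooled SD of their differences was 0.40. Poly-A spike-in probe sets, which carry no biology, differed by -0.47 to 0.68 between the arrays. The EDNRB differences exceeded both in size. So did those of EDN1 on 222802_at (-1.33) and 218995_s_at (-0.94) and of ECE1 on 201749_at (-1.04). Probe set 218995_s_at lay below log2 6 in both lines, a level that the pooled SD leaves out. The remaining EDN1 probe set (0.09), also below log2 6, fell inside both yardsticks. The second ECE1 probe set (-0.53) was larger in size than 0.40 and lay just below the spike-in low end of -0.47. It was smaller in size than the high end of 0.68. These yardsticks hold no spread between cultures, so they do not show whether EDN1 or ECE1 differ between the lines beyond it.

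**Figure D2:**
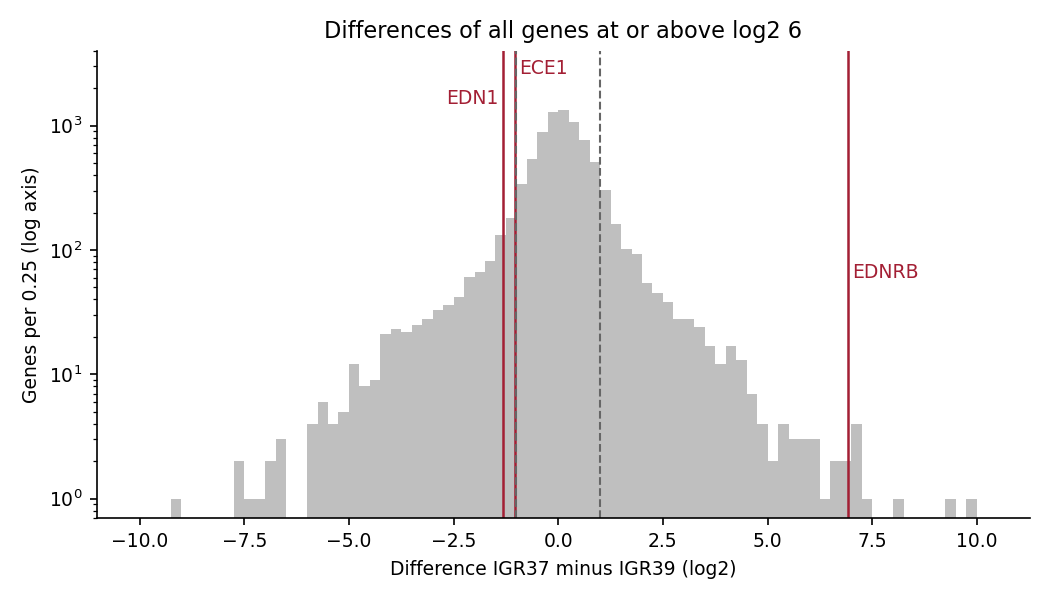
Number of genes (log axis) in steps of 0.25 of the difference IGR37 minus IGR39 (log2), for the 8501 genes that reached log2 6 in either line. Red lines mark EDNRB (6.93), EDN1 (-1.33) and ECE1 (-1.04), and dashed lines the 2-fold limits; EDNRB lies in the thin right tail, and the others lie at the edge of the bulk, on or near the lower limit.

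Of the enzymes that process or break down endothelins, neprilysin was the 1 past the 2-fold limit. Of 11 genes in this list, all measured, 5 reached log2 6, of which 1 was higher in IGR37 by 2-fold or more, 0 were lower and 4 lay within 2-fold. A count of 1 of 5 is little different from the 11.4% of all genes, and it was 0 when probe sets ending in _x_at or _s_at were left out. The median difference was 0.09, against 0.07 over all 8501 genes. MME, neprilysin, a cell-surface protease that degrades endothelins and other peptides, stood at 5.97 in IGR39 and 8.52 in IGR37. Its difference was 2.55, and the second probe set gave 2.43. FURIN, which cuts the precursors, was at 7.10 and 7.18. ECE2, a relative of ECE1 that works at acidic pH, was at 5.88 and 6.46. CTSA, a lysosomal carboxypeptidase that inactivates EDN1, was at 9.81 and 9.75.

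None of the 5 receptors related to the endothelin receptors reached log2 6 in either line. GPR37, an orphan receptor of similar sequence, lay at 2.83 in IGR39 and 2.99 in IGR37. The highest value of the list was 5.54.

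The G protein subunits that carry the signal inward lay within 2-fold between the lines. Of 25 genes for G proteins and their effectors, 14 reached log2 6, of which 2 were higher in IGR37 by 2-fold or more, 2 lower and 10 within the limit. These shares are near the 11.4% and 9.5% of all genes. Both counts were 0 with probe sets averaged and the minimum applied to the averages, so genes whose averaged level fell below it dropped out. The median was 0.02, and -0.76 at a minimum of log2 7. GNAQ, the Gq subunit, stood at 9.24 in IGR39 and 8.48 in IGR37. GNA11, its close homologue, was at 8.99 and 8.12, with differences of -0.87 to -0.38 over 6 probe sets. Both subunits were above the minimum in both lines and somewhat lower in IGR37.

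PRKCA, the classical isoform alpha, was at 7.70 in IGR39 and fell short of log2 6 in IGR37, at 3.98. Its probe sets at log2 6 gave differences of -3.72 and -1.57, and the mean over all 5 was -1.22. PRKCB, the beta isoform, stood at 3.88 and 6.68, and PRKCH, the eta isoform, at 4.44 and 6.39. Each of these was carried by 1 probe set at that level, and averaging all probe sets gave 0.82 and 0.87. The calcium channel gene ITPR3 was lower, at 8.49 and 7.45, and its second probe set gave -1.03, but the mean over all 4 was -0.58.

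Among 12 measured genes of receptor desensitisation, 7 reached log2 6. Of these, 2 passed the 2-fold limit upward in IGR37, 1 downward and 4 lay within it, with a median of 0.32. Over all genes the shares were 11.4% and 9.5%, and with probe sets averaged the counts were 1 and 0. RGS3, which shortens signals of Gq and Gi, stood at 9.69 in IGR39 and 6.65 in IGR37. RGS20 was at 6.21 and 7.42, and the receptor kinase GRK3 at 5.24 and 6.29, with a mean of 0.64 over its 3 probe sets. ARRB1, a beta-arrestin, was at 6.23 and 6.74. The RGS3 value rests on 1 probe set, and the mean over all of them was -1.0.

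Most of the neural crest genes that work with EDNRB were higher in IGR37, as it was. Of 9 measured, 8 reached log2 6, of which 7 were higher by 2-fold or more, 1 was lower and 0 lay within the limit. The median was 2.35, beside 0.07 over all genes, and the share of genes higher in all was 11.4%. All 8 reached log2 6 in IGR37, but only 4 did in IGR39. SOX10, PAX3, KIT and ZEB2 thus passed the minimum only through the line where they were higher. Without a minimum the median was 1.40. With probe sets averaged, and the minimum applied to the averages, 4 were higher and 0 lower. The median was 1.39 when probe sets ending in _x_at or _s_at were left out and 3.25 over the fewer genes that remained on averaging. Several of these genes were known to differ between these arrays when the list was chosen, so it is no independent support.

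SOX10, whose loss in humans gives the same syndrome as loss of EDNRB or EDN3, stood at 4.10 in IGR39 and 10.65 in IGR37. MITF, the melanocyte regulator, was at 7.57 and 11.81, the receptor KIT at 5.95 and 10.04, and ZEB2 at 3.42 and 6.73. The second SOX10 probe set gave a smaller difference, 3.18. ZEB2 rests on 1 probe set at log2 6, and the mean over all 5 was 1.10. PAX3 also rests on 1 such probe set (1.40), and the mean over all 4 was 0.41. For TFAP2A the 2 probe sets at log2 6 gave 1.31 and 0.91, and the mean over all 3 was 0.76. PAX3 and TFAP2A were named after their values were seen. The 1 gene that went the other way was KITLG, the KIT ligand, at 7.96 and 6.03 (named after its value was seen). Its difference rests on 1 probe set at log2 6, and the mean over all 4 was -0.57.

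Factors known to act on the EDN1 promoter divided. Of 13 measured, all at log2 6 or more in 1 line, 3 passed the 2-fold limit upward in IGR37, 4 downward and 6 lay within it, against 11.4% and 9.5% of all genes. With probe sets averaged, 1 was higher and 4 were lower. The median was -0.40, and -0.88 averaged. JUN, a subunit of AP-1, stood at 8.09 in IGR39 and 3.98 in IGR37, and FOSL1 at 10.52 and 7.87. FOS, another subunit of AP-1, went the other way, from 5.60 to 8.23. KLF4 was at 9.42 and 5.69. HIF1A, the hypoxia factor, was at 10.82 and 9.94, and GATA2 at 6.55 and 6.09. The other lower gene was SMAD3, with a difference of -1.72, and the other higher genes were SMAD4 (1.41) and ARNT (1.10). Each of these was named after its value was seen. SMAD4 and ARNT each rest on 1 probe set at log2 6, and their means over all probe sets were 0.33 and 0.52. The second JUN probe set at log2 6 gave -1.69, against -4.11 on the first.

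**Figure D3:**
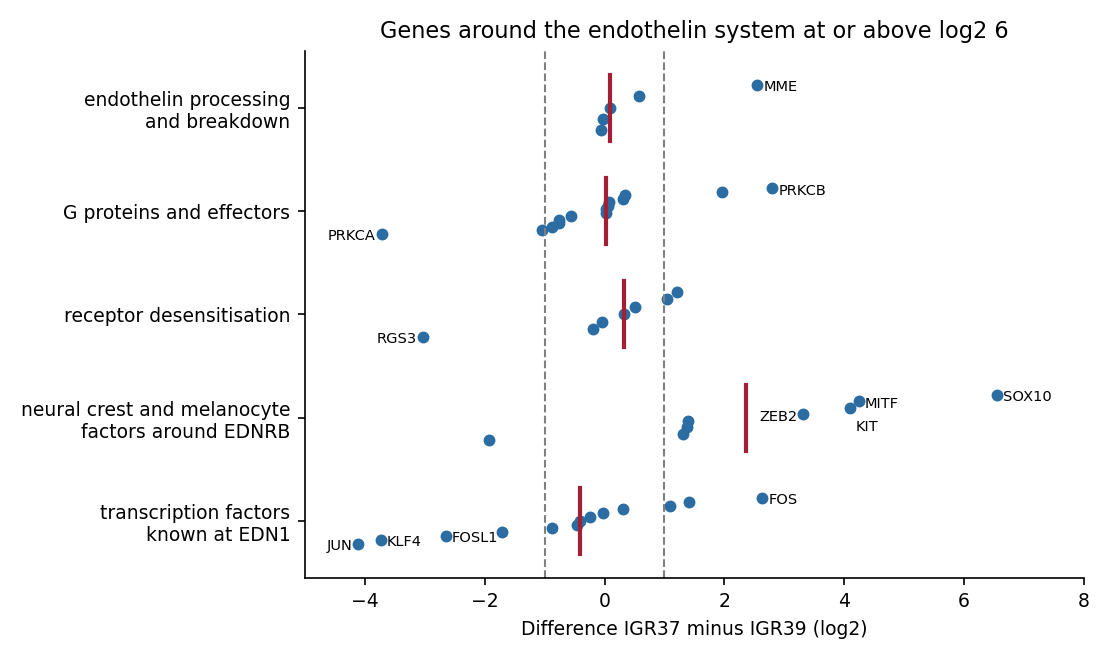
Difference IGR37 minus IGR39 (log2) of each gene that reached log2 6 in either line, in 5 lists of genes around the endothelin system, with 1 point per gene, a red bar at each list's median and dashed lines at the 2-fold limits. The neural crest list lies mainly to the right (median 2.35), and the other lists straddle 0.

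The genes whose difference was nearest to that of EDNRB were taken from the 8501 genes, by the absolute gap between the differences over the 2 arrays. BCL2A1, an apoptosis inhibitor, was nearest with 6.86. SLC45A2 (7.0) and OCA2 (7.03), both melanosomal transporters, followed, then GPM6B (7.11), a membrane glycoprotein of glia, and LHFPL3-AS1 (6.73), a noncoding RNA. Only 3 genes lay within 0.1 of EDNRB. For EDN1, 117 genes lay that near, led by C2CD2, EHD3 and PFKP, and for ECE1 179, led by LLPH, ARHGAP33 and NEURL1B. These numbers follow how many genes have differences of that size. The probe sets of EDNRB alone span 5.12 to 7.37, so the order of the nearest genes has no weight.

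The neighbours of the members in RefSeq gene order were compared next. Around EDNRB on chromosome 13, 4 of the 10 nearest measured genes reached log2 6. Of these, 2 were higher in IGR37 by 2-fold or more, against 11.4% of all genes. SLAIN1, a microtubule gene, stood at 2.77 in IGR39 and 6.22 in IGR37, and OBI1 at 6.19 and 7.21. SLAIN1 thus passed the minimum only in IGR37, and the OBI1 difference of 1.01 lay just past the 2-fold limit. MYCBP2 and RBM26 differed by 0.95 and 0.75. The genes directly beside EDNRB were below the minimum in both lines. Among them was EDNRB-AS1, an RNA annotated as antisense to EDNRB, at 3.34 and 3.56.

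Around EDN1 on chromosome 6, the 3 neighbours at log2 6 were all higher in IGR37 by 2-fold or more, opposite to EDN1, where 11.4% of all genes were. They were PHACTR1 (4.99 and 8.67), TBC1D7 (6.32 and 10.41) and GFOD1 (5.56 and 7.11). Of the neighbours at log2 6 around EDN2 and EDN3, 0 of 4 and 0 of 5 differed by 2-fold. Around ECE1, 2 of 6 were higher, KIF17 with 2.20 and RAP1GAP with 3.49. So few neighbours allow no statement on these regions. Around the position of EDNRA, 2 neighbours reached log2 6 and lay within 2-fold.

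**Figure D4:**
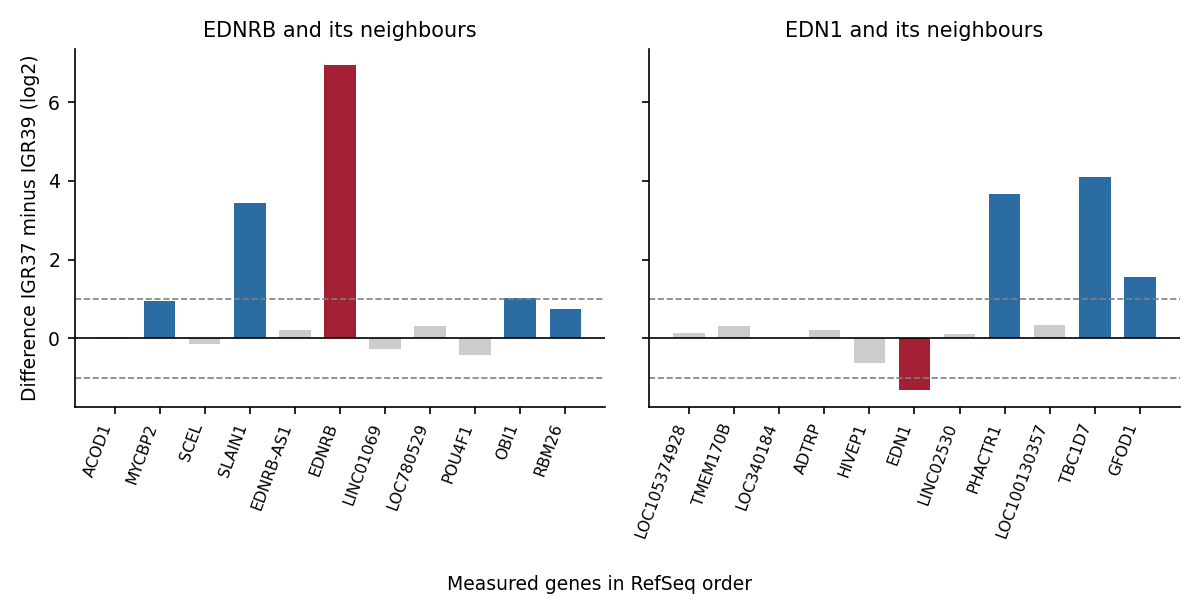
Difference IGR37 minus IGR39 (log2) of EDNRB and of EDN1 (red) and of the 5 measured genes on either side in RefSeq order; blue bars are genes that reached log2 6 in either line, grey bars genes below it in both, dashed lines the 2-fold limits. EDNRB (6.93) and SLAIN1 (3.44) stand out in the left panel, and EDN1 points down beside higher PHACTR1 and TBC1D7 in the right.

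Markers of cell types set the frame for these levels. All 7 measured melanocyte lineage markers reached log2 6 in IGR37 (10.48 to 13.05) and 1 of 7, MITF, in IGR39 (3.15 to 7.57). Apart from MITF, the measured pigment cell markers thus lay below this level in IGR39. EDNRB differed along with the markers, and their part in the EDNRB result was not tested. None of the 8 endothelial and none of the 7 immune markers reached log2 6 in either line, with highest values of 4.98 and 5.03. Of the 7 smooth muscle markers 1 (SMTN) reached it, of the 5 keratinocyte markers 1 (KRT10), and of the 7 fibroblast markers 4. Those 4 divided: FAP (8.85 in IGR39 and 6.83 in IGR37) and COL1A2 (6.27 and 3.84) were lower in IGR37, LUM (3.41 and 6.26) was higher, and COL1A1 (5.87 and 6.15) differed little. COL1A2, LUM and COL1A1 each rest on 1 probe set at log2 6. Their mean differences over all probe sets were -1.04, 1.49 and -0.71. In RNA from whole cultures, fewer cells of a type and less RNA per cell cannot be told apart.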

How the data were processed

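The deposited file holds 1 log2 level for each probe set and line. Per the submitters' processing notes, the authors used the affy package and RMA. Their versions and the set of arrays normalised jointly were not given in the sources used here. RMA evens out overall brightness and compresses low levels. The file has no detection calls, so log2 6 in the brighter array served as a chosen minimum. Each array held 54675 probe sets, of which 41091 had 1 symbol, 1801 several, 11721 were unnamed here and 62 were controls; symbols were updated through gene identifiers (41037 matched) to RefSeq, GRCh38.p14. A gene's value was its probe set with the highest mean, and the difference was IGR37 minus IGR39, with a limit of 1 (2-fold). The number of arrays limits the precision.

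The members and lists were chosen with earlier results of these data known. Named were the members, up to 4 genes per list with the largest absolute difference at log2 6, GNAQ, GNA11, GPR37, SOX10, MITF and JUN, the 5 genes nearest to EDNRB and 3 nearest to EDN1 and ECE1, and neighbours past 2-fold. GATA2 and HIF1A were added afterwards. Promoter windows matched 5 of the 6 members. The calculation was tested on simulated data. Software was Python 3.11.15, with pandas 2.3.3, numpy 2.4.6, statsmodels 0.14.6 and matplotlib 3.10.9. Alternatives were other minimums, other choices of probe set and other scalings.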

Additional observations from a re-analysis of the deposited data

How the results depend on the processing

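EDNRB stayed at least 2-fold higher in IGR37 under each of the 7 alternatives tried for it, from 5.12 when probe sets ending in _x_at or _s_at were left out to 7.20 after centring on housekeeping genes, with 6.47 when probe sets were averaged. EDN1 stayed lower, from -1.33 to -0.72, the latter when probe sets were averaged, and ECE1 from -1.07 to -0.77. The number of members at least 2-fold lower, 2 in the report, was 0 with probe sets averaged, 1 after either centring on housekeeping genes and 1 at a minimum of log2 7. With probe sets ending in _x_at or _s_at left out, EDN3 has no value, since both of its probe sets end so. The G protein list's median was -0.76 at a minimum of log2 7. The neural crest list's median was 3.25 with probe sets averaged, 1.39 when those ending in _x_at or _s_at were left out, and 1.40 without a minimum. The median of the factors at EDN1 was -0.88 with probe sets averaged. Of 90 list counts under the alternatives, leaving out counts of 0 throughout, 71 stayed within 1.5 times, 17 fell and 2 rose. Over all genes, 973 were higher and 808 lower; averaging gave 588 and 503, and centring on the median housekeeping level, which raised differences by 0.27, gave 1523 and 613. That level was set by 1 gene, EIF2B1. The median housekeeping difference was -0.04, and centring on it, chosen after seeing the data, gave 1047 and 767. No paired analysis was possible because each line has 1 array. Genes below log2 6 in both lines, EDN2 and EDN3 among them, are limited by signal over background.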

Other observations

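The families around 2 members of the lists were looked at after the data were seen. Of 8 measured protein kinase C genes, 6 reached log2 6, with 2 at least 2-fold higher in IGR37, 1 lower and 3 within 2-fold. The shares over all genes were 11.4% higher and 9.5% lower. Besides the alpha, beta and eta isoforms, PRKCD stood at 6.54 in IGR39 and 6.89 in IGR37, PRKCE at 6.80 and 6.88, and the atypical PRKCI at 9.56 and 8.87. PRKCQ, best known from T cells, was below the minimum in both lines.

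Of 20 measured RGS genes, which speed the switching off of G proteins, 6 reached log2 6, with 3 at least 2-fold higher in IGR37 and 1 lower. Over all genes 11.4% were higher and 9.5% lower. Among the RGS genes counted, RGS2, RGS3 and RGS20 were already in the desensitisation list. RGS1 had the largest positive difference of the RGS genes, at 3.68 in IGR39 and 8.01 in IGR37, with 3.65 and 4.33 on its 2 probe sets. RGS10 was at 8.20 and 9.29, and RGS19 at 8.23 and 7.61.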
